A study of Mus musculus with 6 samples.

Results

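Fatty acid oxidation, ketogenesis and the other targets of the receptor PPARA were examined in liver RNA of mice lacking SIRT7 and of wild-type mice. The set holds 37 listed genes, of which 36 have a probe set that carries exactly 1 gene symbol in the platform annotation, out of 12393 such genes on the array. Acsl1 has none and was not analysed here. Where a gene has several, the brightest probe set on average stands for it. The genes fall into 18 mitochondrial, 9 peroxisomal, 2 ketogenic and 7 other PPARA target genes (here with Ppara itself). Of the 36 genes, 35 had a mean log2 value of at least 4 and were tested. Acot2 did not, so that 17 mitochondrial genes were tested.

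The data are 6 single-colour Affymetrix arrays, 1 per liver sample, from 3 SIRT7 knockout and 3 wild-type livers. SIRT7 is a nuclear NAD-dependent deacylase, and the study's title concerns its part in restraining MYC activity. The submitters state that every sample was treated alike. The sources used here do not give strain, age, sex, diet, hour of dissection or the way in which the Sirt7 allele was disrupted. No label says that the 3 livers of a group are those of different mice, and a p-value here reflects the spread among the samples, whether technical or biological.

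In the fasting liver, fatty acids released from fat enter mitochondria as carnitine esters and are shortened by beta-oxidation, and the acetyl-CoA formed is turned into ketone bodies. Very long and branched chains are shortened in peroxisomes. PPARA is a nuclear receptor activated by fatty acids that, paired with RXR, binds direct repeats of the hexamer AGGTCA spaced by a single base and raises transcription of genes in both compartments. Among its most inducible targets in mouse liver are the Cyp4a hydroxylases, Vnn1, Angptl4 and Fgf21.

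The binding letters were looked for in RefSeq's GRCm38.p6 windows of the 250 bases before each annotated start, which were found for 30 of the 37 genes (32 windows). Neither strand of any window of these genes held the full repeat AGGTCANAGGTCA, which occurs in 0.0335% of all 32851 such windows. With a free base at the same place in each hexamer (AGGNCANAGGNCA), 1 gene, Fabp1, had a match, against 0.338% of all windows. A lone AGGTCA hexamer, which is part of the longer motifs, was found for 5 genes (Acadm, Acadvl, Cpt1a, Fabp1 and Slc27a2), against 14.0% of all windows. A match describes letters in a window and no binding site. Fabp1 is shown for its repeat, with the match in capitals (on the reverse strand, positions -67 to -55 relative to the start, with a further lone hexamer left in lower case near the end), Acadm for a lone hexamer, also in capitals and on the reverse strand, and Pex11a as a peroxisomal gene whose values are taken up below and whose window holds neither. The windows are chr6:71199629-71199878 (plus strand), chr3:153944644-153944893 (minus strand) and chr7:79743132-79743381 (minus strand), each written 5′ to 3′ along its gene.
Fabp1: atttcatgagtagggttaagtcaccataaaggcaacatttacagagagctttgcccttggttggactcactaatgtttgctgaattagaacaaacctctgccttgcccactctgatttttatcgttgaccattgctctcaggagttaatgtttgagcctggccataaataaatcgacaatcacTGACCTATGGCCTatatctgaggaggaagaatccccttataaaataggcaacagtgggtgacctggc
Acadm: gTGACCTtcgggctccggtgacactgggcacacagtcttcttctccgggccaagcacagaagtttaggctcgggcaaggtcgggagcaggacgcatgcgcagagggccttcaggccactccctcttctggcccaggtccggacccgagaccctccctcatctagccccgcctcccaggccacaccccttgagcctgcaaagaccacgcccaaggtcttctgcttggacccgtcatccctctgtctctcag
Pex11a: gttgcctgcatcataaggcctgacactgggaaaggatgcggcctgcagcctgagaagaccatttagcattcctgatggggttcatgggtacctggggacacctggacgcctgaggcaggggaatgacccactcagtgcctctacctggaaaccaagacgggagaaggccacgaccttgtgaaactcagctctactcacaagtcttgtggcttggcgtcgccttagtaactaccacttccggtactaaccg

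Sirt7 itself was at log2 values of 2.38, 3.10 and 2.85 in knockout livers 1 to 3, against 9.85, 9.80 and 9.57 in wild-type livers 1 to 3, as all 6 labels say. The sources used here do not say which part of the gene was removed or whether the probes cover it. Wild-type liver 3 stood nearer to the knockout arrays than to its own group, with correlations across the tested genes of 0.972, 0.977 and 0.979 to knockout livers 1 to 3 and 0.968 and 0.971 to wild-type livers 1 and 2. Knockout liver 3 correlated at 0.969, 0.976 and 0.979 with wild-type livers 1 to 3, against 0.962 and 0.976 with knockout livers 1 and 2. The main count, the class medians and the largest differences are also given without wild-type liver 3. In bulk tissue, fewer cells of a type and less RNA per cell cannot be told apart.

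No gene of the set passed the threshold. Limma called 0 of the 35 tested genes at an adjusted p under 0.05, where it called 0.024% of all 8343 genes tested. The smallest adjusted p in the set was 0.760, for Vnn1. An unadjusted p under 0.05 was found for 5 genes that were higher in knockout livers (Vnn1, Angptl4, Pex11a, Crat and Acot8) and 0 lower ones, against 6.46% of all genes in either direction, 3.04% higher and 3.42% lower. The number was 6 without wild-type liver 3, where 11.7% of all genes had such a p in either direction. It was 1 without wild-type liver 1 (3.31% of all genes), 0 without knockout liver 1 (4.48%) and 3 without knockout liver 2 (4.08%). The groups did not overlap in 3 genes that were higher in knockout livers (Vnn1, Angptl4 and Pex11a), against 4.27% of all genes, and in 1 that was lower (Acadm), against 5.48%, and 9.74% in either direction.

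The median difference, knockout minus wild type, was -0.084 on the log2 scale over the 17 mitochondrial genes, 0.046 over the 9 peroxisomal genes, 0.17 over the 2 ketogenic genes and 0.44 over the 7 other PPARA targets, beside -0.032 over all genes tested. Differences above 0 were found for 6 of 17 mitochondrial, 6 of 9 peroxisomal, 2 of 2 ketogenic and 7 of 7 other target genes, and for 45.4% of all genes. Without wild-type liver 3 the class medians were 0.062, 0.11, 0.35 and 0.60 in the same order, and without wild-type liver 1 they were -0.22, -0.0057, 0.061 and 0.22. Aldh3a2, 1 of the other targets, was at -0.096 without wild-type liver 1. These are descriptions of lists, and the difference between classes was not tested. For 29 of the 35 genes the 95% interval of the difference lay within -1 to 1, so that a change of 2-fold or more in either direction lay outside it. This held for 15 of 17 mitochondrial and 4 of 7 other target genes.

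**Figure D1:**
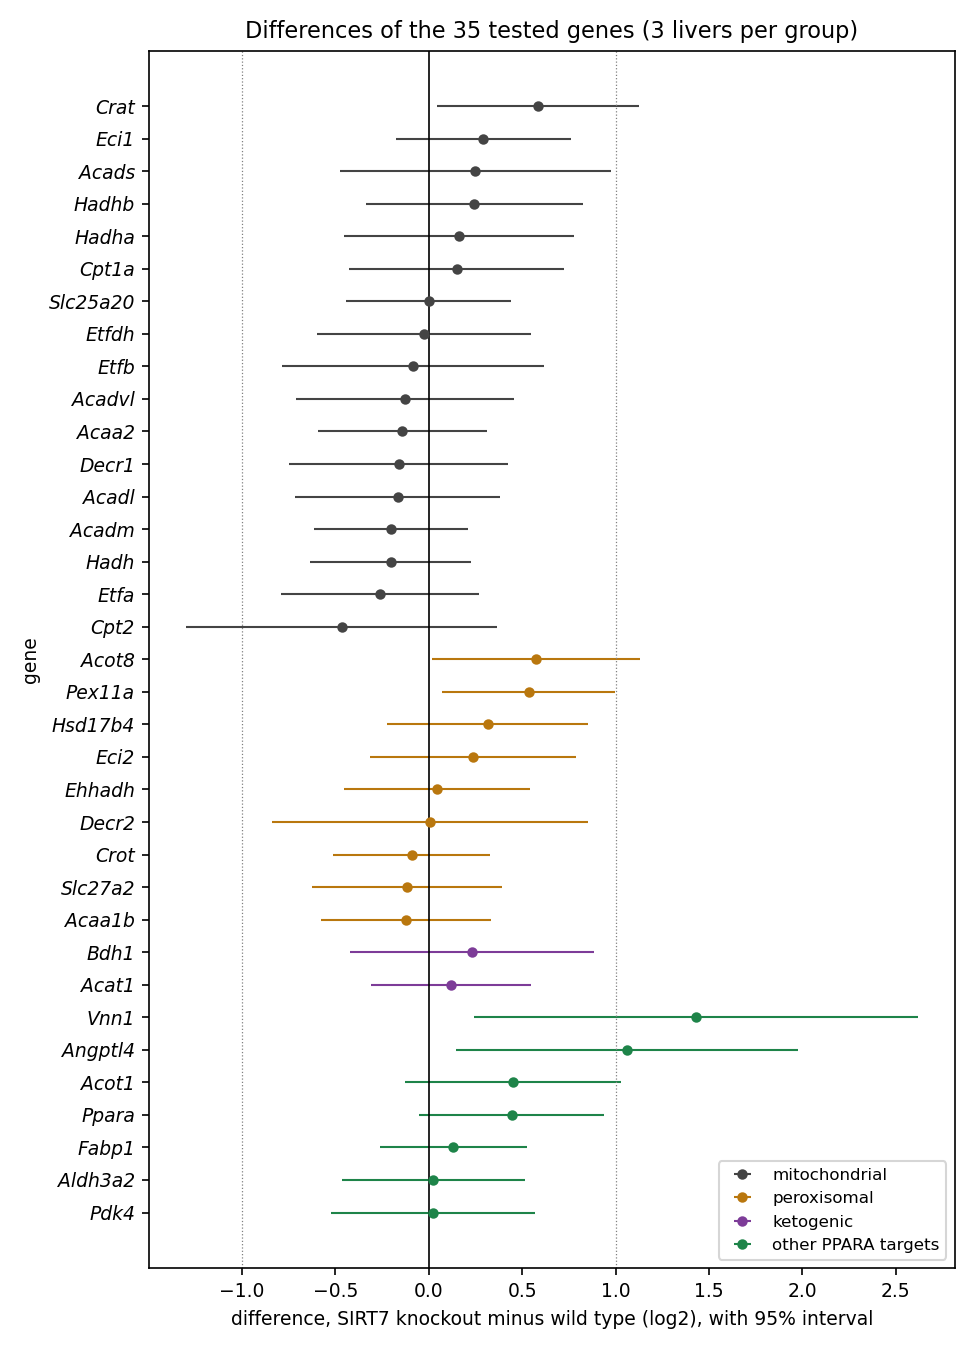
Difference of each tested gene, SIRT7 knockout minus wild type, on the log2 scale (x axis), with its 95% interval from limma (3 livers per group); genes run down the page by class and colour, and dotted lines mark -1 and 1. Vnn1 (1.43) and Angptl4 (1.06) lie farthest to the right, and every mitochondrial interval except that of Crat spans 0.

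Among the other PPARA targets, Vnn1, which encodes the pantetheinase vanin-1, had the largest difference of the set. Its log2 values were 10.02, 9.93 and 9.60 in knockout livers 1 to 3, against 7.04, 8.79 and 9.43 in wild-type livers 1 to 3. The knockout livers lay close together and above every wild-type liver, and wild-type liver 1 was far below the rest. The difference was 1.43 (SE 0.52), or 2.70-fold, with a limma adjusted p of 0.760. Without wild-type liver 1 it was 0.74, and without wild-type liver 3 it was 1.94.

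Angptl4, a secreted inhibitor of lipoprotein lipase, was at 10.67, 10.53 and 10.47 in knockout livers 1 to 3, against 8.53, 10.37 and 9.59 in wild-type livers 1 to 3. Again no knockout value reached down into the wild-type range, and the wild-type livers were spread over a wider range than the knockout livers (means 10.56 ± 0.099 in knockout and 9.49 ± 0.92 in wild type, SD, n = 3 each). The difference of 1.06 (SE 0.40) was 0.58 without wild-type liver 1 and 1.50 without wild-type liver 2, and 1.11 without wild-type liver 3. A dim probe set of the gene, below the filter, differed by 0.72.

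Ppara, the receptor gene, was at 8.05, 7.68 and 7.99 in knockout livers 1 to 3, against 7.30, 7.29 and 7.80 in wild-type livers 1 to 3. Knockout liver 2 was below wild-type liver 3, so the groups overlapped, and the difference was 0.44 (95% interval -0.051 to 0.94). Acot1, a cytosolic acyl-CoA thioesterase, gave 9.20, 8.84 and 8.68 in knockout livers, against 7.99, 8.62 and 8.76 in wild-type livers. Only knockout liver 3 fell within the wild-type range of this gene, and the difference was 0.45 (95% interval -0.13 to 1.03), or 0.22 without wild-type liver 1. A probe set shared by Acot1 and its neighbour Acot2, left out of the fit, differed by 0.66. The probe set of Acot2 alone, a mitochondrial thioesterase gene, was near the lower end of the scale, at 3.23, 3.05 and 3.13 in knockout livers, against 3.37, 3.45 and 3.28 in wild-type livers, and the lowest wild-type value was just above the highest knockout value.

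The remaining targets had differences closer to 0. Fabp1, the abundant fatty acid binding protein of hepatocytes whose promoter window is printed above, gave 13.37, 13.45 and 13.48 in knockout livers, against 13.39, 13.31 and 13.21 in wild-type livers. These values are close to the highest on the arrays (13.97), and the difference was 0.13 (95% interval -0.26 to 0.52). For Aldh3a2, a fatty aldehyde dehydrogenase, values were 10.90, 11.04 and 11.38 in knockout livers, against 10.85, 11.09 and 11.32 in wild-type livers, with overlapping groups and a difference of 0.023 (95% interval -0.47 to 0.51). Pdk4, the kinase that shuts off pyruvate dehydrogenase in fasting, differed by 0.022 (95% interval -0.52 to 0.57), with its 6 values between 9.66 and 10.35.

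**Figure D2:**
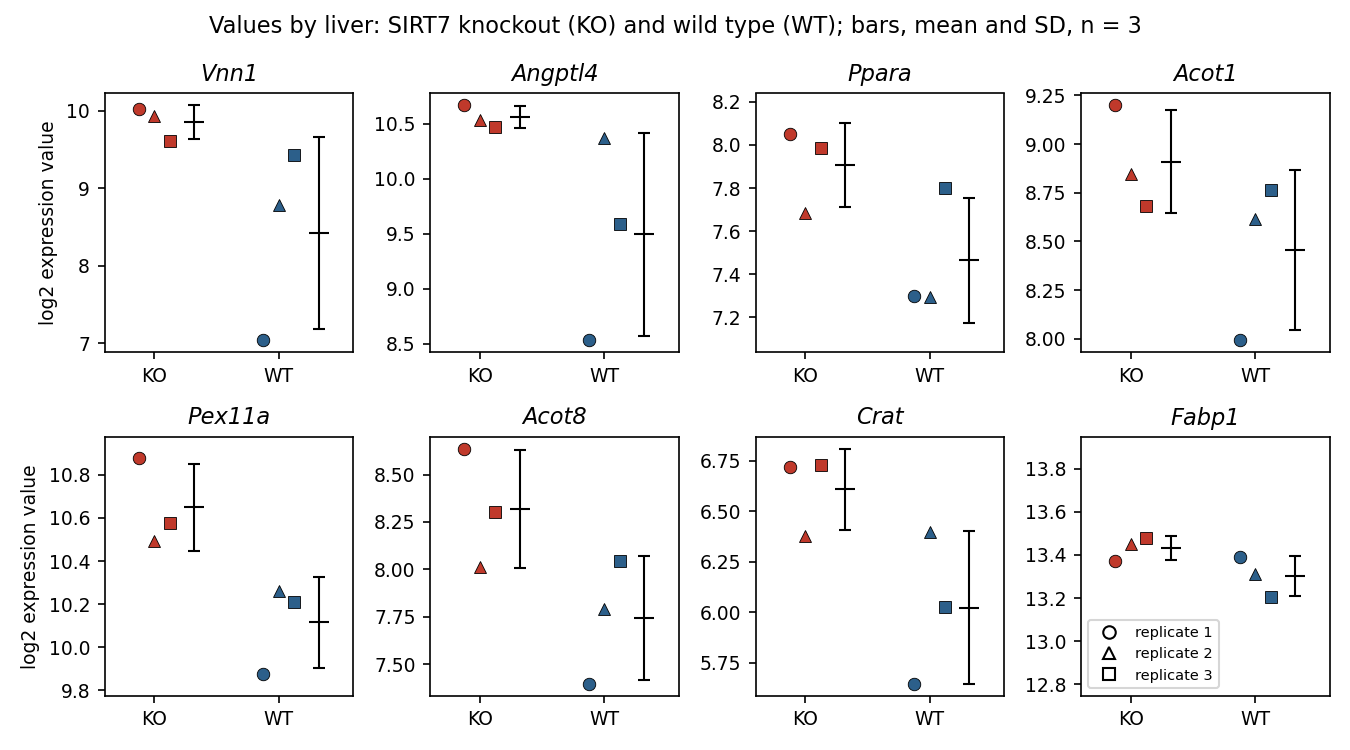
Log2 expression value (y axis, a range of its own in each panel) of 8 genes in SIRT7 knockout (KO) and wild-type (WT) livers; symbols mark the replicate, and bars give the mean and SD (n = 3). For Vnn1, Angptl4, Acot1, Acot8, Pex11a and Crat the lowest of the 6 values is that of wild-type liver 1.

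Peroxisomal genes showed small differences with mixed signs. Pex11a, a membrane protein of peroxisome division, was at 10.88, 10.49 and 10.58 in knockout livers 1 to 3, against 9.87, 10.26 and 10.21 in wild-type livers 1 to 3, with no overlap between the groups and a difference of 0.53 (SE 0.20). Another bright probe set of the same gene gave 9.86, 9.04 and 10.25 in knockout livers, against 9.58, 10.16 and 9.83 in wild-type livers, so its groups overlapped and the difference had the opposite sign (-0.14). Acot8, the peroxisomal thioesterase, was measured by a single probe set, at 8.64, 8.01 and 8.30 in knockout livers, against 7.39, 7.79 and 8.04 in wild-type livers. Knockout liver 2 lay just under wild-type liver 3, and the difference of 0.57 (SE 0.24) was 0.40 without wild-type liver 1.

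For the remaining peroxisomal genes, which include the enzymes of the oxidation cycle, every 95% interval spanned 0. Hsd17b4, the D-bifunctional protein, gave 11.66, 11.77 and 11.34 in knockout livers, against 11.53, 11.43 and 10.87 in wild-type livers, with wild-type liver 3 the lowest of the 6. Eci2, an enoyl-CoA isomerase, gave 12.10, 11.98 and 12.03 in knockout livers, against 11.32, 12.19 and 11.88 in wild-type livers, where wild-type liver 1 was lowest and wild-type liver 2 highest. Their differences were 0.32 (95% interval -0.22 to 0.85) and 0.24 (95% interval -0.32 to 0.79). Acaa1b, a thiolase gene, was among the brightest of the class, at 12.64, 12.79 and 12.98 in knockout livers, against 12.68, 13.05 and 13.06 in wild-type livers. Crot, which makes carnitine esters of medium-chain products for export to mitochondria, was at 12.18, 12.23 and 12.39 in knockout livers, against 12.21, 12.35 and 12.52 in wild-type livers. Both had overlapping groups, with differences of -0.12 (95% interval -0.58 to 0.33) and -0.092 (95% interval -0.51 to 0.33). Ehhadh, the L-bifunctional protein, differed by 0.046 (95% interval -0.45 to 0.54), Slc27a2, a very-long-chain acyl-CoA synthetase, by -0.12 (95% interval -0.63 to 0.39), and Decr2, a dienoyl-CoA reductase, by 0.0053 (95% interval -0.84 to 0.85). In Decr2, knockout liver 1 (9.91) and wild-type liver 3 (9.89) stood above the other 4 livers (8.73 to 9.04).

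The groups overlapped for every tested mitochondrial gene except Acadm. Crat, a carnitine acetyltransferase that buffers acetyl-CoA, was the dimmest tested gene of the set and the only mitochondrial one with an unadjusted p under 0.05. It was at 6.72, 6.38 and 6.73 in knockout livers 1 to 3, against 5.65, 6.40 and 6.03 in wild-type livers 1 to 3. Wild-type liver 2 reached the level of knockout liver 2, and the difference was 0.59 (SE 0.24), or 0.40 without wild-type liver 1. Eci1, a mitochondrial enoyl-CoA isomerase, was at 11.12, 10.77 and 11.23 in knockout livers, against 10.54, 10.80 and 10.90 in wild-type livers, with overlapping groups and a difference of 0.29 (95% interval -0.18 to 0.76).

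At the carnitine shuttle, Cpt1a, the rate-controlling outer-membrane transferase, differed by 0.15 (95% interval -0.43 to 0.73) and Slc25a20, the carrier that exchanges carnitine esters across the inner membrane, by -0.0010 (95% interval -0.44 to 0.44). Cpt2, the inner-membrane transferase, was at 9.69, 9.92 and 11.00 in knockout livers, against 10.16, 10.94 and 10.91 in wild-type livers. Knockout livers 1 and 2 were the lowest of the 6 and knockout liver 3 the highest, which gave a difference of -0.47 (95% interval -1.30 to 0.37). Without knockout liver 1 it was -0.21, without wild-type liver 1 it was -0.72, and without knockout liver 3 it was -0.86, the last with an adjusted p of 0.274 in limma.

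The acyl-CoA dehydrogenases, which open each cycle for chains of different length, had differences of -0.20 (Acadm, medium chain), -0.17 (Acadl, long chain), 0.25 (Acads, short chain) and -0.13 (Acadvl, very long chain). Acadm was at 11.34, 11.59 and 11.64 in knockout livers, against 11.68, 11.74 and 11.77 in wild-type livers, so that its groups did not overlap although the difference was small, with a 95% interval of -0.61 to 0.21. These enzymes pass their electrons to a flavoprotein and on to the respiratory chain. Etfa, a subunit of the electron transfer flavoprotein, was at 11.93, 11.85 and 12.44 in knockout livers, against 12.06, 12.37 and 12.57 in wild-type livers, with a difference of -0.26 (95% interval -0.79 to 0.27). The other subunit, Etfb, differed by -0.084 (95% interval -0.79 to 0.62) and Etfdh, which passes the electrons to ubiquinone, by -0.026 (95% interval -0.60 to 0.55).

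For the later steps of the cycle, the trifunctional protein genes Hadha and Hadhb differed by 0.16 (95% interval -0.45 to 0.78) and 0.24 (95% interval -0.34 to 0.83). Hadh, the dehydrogenase for shorter hydroxyacyl chains, was at 12.07, 12.05 and 12.42 in knockout livers, against 12.36, 12.32 and 12.48 in wild-type livers, and Acaa2, the mitochondrial thiolase, at 12.61, 12.76 and 13.11 in knockout livers, against 12.97, 13.06 and 12.87 in wild-type livers. Their groups overlapped, with differences of -0.20 (95% interval -0.64 to 0.23) and -0.14 (95% interval -0.60 to 0.31). Decr1, the mitochondrial dienoyl-CoA reductase, differed by -0.16 (95% interval -0.75 to 0.43), with wild-type liver 3 highest (11.75) and wild-type liver 1 lowest (10.82).

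Both ketogenic genes had overlapping groups. Acat1, the thiolase that joins acetyl-CoA units, was at 12.32, 12.38 and 12.00 in knockout livers, against 12.08, 12.06 and 12.20 in wild-type livers. Bdh1, which reduces acetoacetate to beta-hydroxybutyrate, was at 10.77, 10.46 and 10.88 in knockout livers, against 10.05, 10.28 and 11.09 in wild-type livers. In Bdh1 the highest and the lowest of the 6 values were both from wild-type livers. The differences were 0.12 (95% interval -0.31 to 0.55) and 0.23 (95% interval -0.42 to 0.88). Leaving out 1 liver gave 0.048 to 0.23 for Acat1 and 0.018 (without wild-type liver 1) to 0.54 (without wild-type liver 3) for Bdh1.

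Across the set, the livers differed in level from gene to gene, and wild-type liver 1 was low. The mean deviation of the 35 genes from their average over the 6 livers was 0.13, -0.035 and 0.13 in knockout livers 1 to 3, against -0.34, 0.017 and 0.11 in wild-type livers 1 to 3. Wild-type liver 1 held the lowest value in 15 of 35 genes (42.9%, against 17.4% of all genes) and the highest in 0. For the mitochondrial genes the deviations were -0.019, -0.15 and 0.15 in knockout livers, against -0.25, 0.069 and 0.20 in wild-type livers, so that knockout liver 2 was the low one of its group and wild-type liver 3 the highest of the 6. Peroxisomal genes deviated by 0.21, 0.0012 and 0.018 in knockout livers, against -0.27, 0.032 and 0.012 in wild-type livers. For the other PPARA targets they were 0.36, 0.18 and 0.23 in knockout livers, against -0.66, -0.062 and -0.039 in wild-type livers, where all 3 knockout livers were above all 3 wild-type livers.

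**Figure D3:**
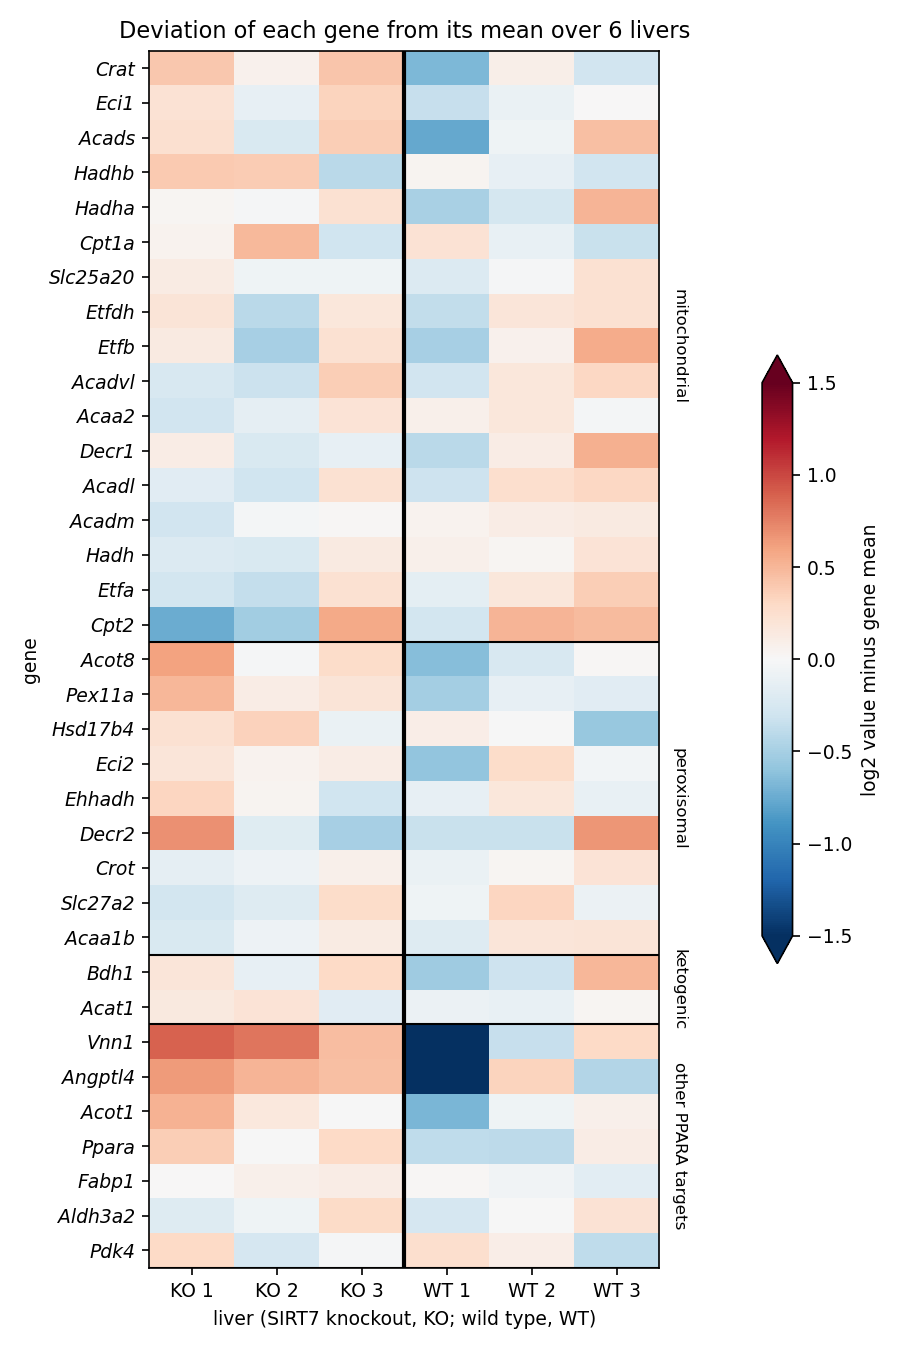
Log2 value minus the gene's mean over the 6 livers (colour; the value of Vnn1 in wild-type liver 1 lies beyond the end of the scale) for the 35 tested genes, with SIRT7 knockout livers (KO) left of wild-type livers (WT). Wild-type liver 1 is the lowest column in 15 of the rows, and mitochondrial rows hold both colours in both groups.

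Other probe sets bear on how far single values can be read. Of the 11 genes with 2 or more probe sets above the filter, all probe sets pointed in 1 direction for 5 (Bdh1, Cpt1a, Decr1, Hadhb and Hsd17b4) and in both for 6 (Acaa2, Acat1, Fabp1, Hadh, Pex11a and Slc25a20). Those of Slc25a20 differed by -0.0010 and 0.33. The disagreement also concerned single livers. Acat1 was lowest in knockout liver 3 on the probe set used, whereas on another it gave 10.92, 10.92 and 11.92 in knockout livers, against 11.39, 11.72 and 12.01 in wild-type livers, with knockout liver 3 well above the other knockout livers. Hadh, highest of its group in knockout liver 3 on the probe set used, gave 12.30, 12.29 and 11.56 in knockout livers, against 11.97, 11.86 and 11.79 in wild-type livers on another, where knockout liver 3 was the lowest of the 6. For 8 of the 11 genes, the sign of knockout liver 3 against the mean of knockout livers 1 and 2 depended on the probe set. In Decr1, counted among them, the 2 values were only -0.0625 and 0.0005. Vnn1, Ppara, Acot1 and Acot8 each have a single probe set with 1 symbol and lack this check.

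**Figure D4:**
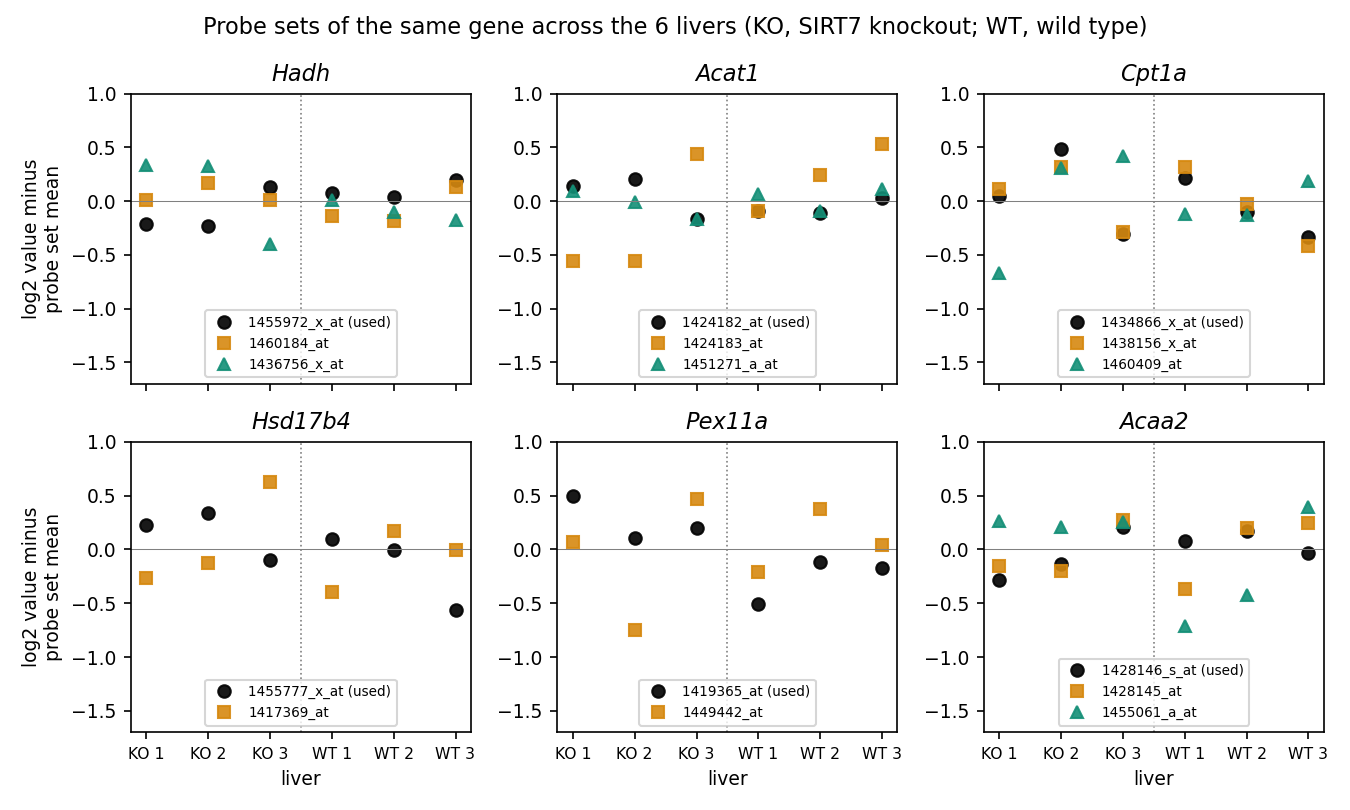
Log2 value minus the probe set's mean over the 6 livers (y axis) for the probe sets above the filter of 6 genes, in SIRT7 knockout (KO) and wild-type (WT) livers (x axis); black points are the probe set used. For Hadh, Acat1, Cpt1a, Hsd17b4 and Pex11a the probe sets of a gene disagree on whether knockout liver 3 is above or below knockout livers 1 and 2.

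Genes of the same pathways outside the set were read from lists, beside 3.04% of all genes higher and 3.42% lower at an unadjusted p under 0.05. Among other PPARA targets, limma called 0 of 31 tested genes, with 4 higher and 0 lower at an unadjusted p under 0.05 and a median difference of 0.070. Cyp4a14, a fatty acid omega-hydroxylase, was at 12.45, 12.14 and 11.00 in knockout livers, against 5.83, 7.69 and 11.37 in wild-type livers, and its relative Cyp4a31 at 5.92, 6.88 and 5.03 in knockout livers, against 2.35, 3.14 and 4.48 in wild-type livers. Both had their lowest value in wild-type liver 1 and their highest wild-type value in wild-type liver 3, the order that Vnn1 also had, and these close paralogs can share probe signal. The wild-type mean of Cyp4a31 (3.32) was under the filter value of 4, and its knockout values (mean 5.94) carried it past the filter. With wild-type values this near the lower end of the scale, its difference is not a ratio of RNA amounts. The differences of Cyp4a14 and Cyp4a31 were 3.56 (SE 1.16) and 2.62 (SE 0.58), with limma adjusted p-values of 0.746 and 0.544. Without wild-type liver 3 that of Cyp4a14 was 5.10 and passed the threshold (limma adjusted p = 0.0147). That fit called 34 of 8340 genes, against 2 in the main fit. Without wild-type liver 1 the difference of Cyp4a14 was 2.33 (limma adjusted p = 0.962). Over the 6 fits that each left out 1 liver, the limma adjusted p of Cyp4a14 lay between 0.0147 and 0.9999. That of Cyp4a31 lay between 0.0571 and 0.9998 and did not pass in any of them. With array weights both genes passed (limma adjusted p of 0.0122 for Cyp4a14 and 0.00633 for Cyp4a31). That fit called 1748 of 8343 genes.

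Fgf21, a hormone made by the fasting liver under PPARA, was below the filter, at 4.17, 4.53 and 3.96 in knockout livers, against 3.24, 2.92 and 3.46 in wild-type livers. Every knockout value was above every wild-type value, and in the fit without a filter the difference was 1.01 (SE 0.21), with a limma adjusted p of 0.614. Txnip, which binds thioredoxin, differed by 1.01 (SE 0.39) with overlapping groups.

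Other mitochondrial oxidation genes had a median difference of -0.022 over 26 tested genes, with 0 called and 0 higher and 2 lower at an unadjusted p under 0.05. The lower ones were the organic cation transporter gene Slc22a4 (-0.55) and Acad10, an acyl-CoA dehydrogenase family gene (-1.03). Acad8, of valine breakdown, differed by -0.37. Over 32 other peroxisomal genes the median was -0.053, with 0 called by limma, 1 higher (Abcd2, a very-long-chain acyl-CoA transporter, 1.54) and 1 lower at an unadjusted p under 0.05. The lower one was Amacr, the racemase needed for branched-chain oxidation and bile acid synthesis, at 9.80, 10.18 and 9.82 in knockout livers, against 10.69, 10.72 and 10.95 in wild-type livers. Its groups did not overlap, and its difference of -0.86 (SE 0.20) had a limma adjusted p of 0.544. Pxmp2, a peroxisomal membrane channel, differed by -0.47 and Acaa1a, the paralog of Acaa1b, by -0.14.

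Of 5 other genes of ketone bodies, 0 were called and 0 had an unadjusted p under 0.05. Slc16a1, a ketone and lactate transporter, differed by 0.57, and its family members Slc16a6 and Slc16a7 by -0.51 and 0.58. Among 19 partners and coregulators of PPARA the median was -0.0040, with 0 called. At an unadjusted p under 0.05 there were the acetyltransferase gene Crebbp (-0.50), which was lower, and Nr0b2, which encodes the corepressor SHP (0.59), which was higher. The coactivator gene Ncoa3 differed by -0.37.

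PPARA targets follow feeding and the time of day, and a few of the listed genes tied to either had an unadjusted p under 0.05. The clock repressor gene Nr1d1 was at 7.31, 7.21 and 6.80 in knockout livers, against 6.57, 6.05 and 6.11 in wild-type livers, and Npas2, a partner of BMAL1, at 5.02, 6.47 and 6.13 in knockout livers, against 7.76, 6.88 and 6.79 in wild-type livers, without overlap in either gene. Dbp differed by 0.64. Of 13 clock genes, 2 were higher and 1 lower at an unadjusted p under 0.05. Among 16 genes of fasting and feeding, 2 were higher and 0 lower. Rgs16, a regulator of G protein signalling, was at 10.54, 10.26 and 8.80 in knockout livers, against 4.87, 7.68 and 4.82 in wild-type livers, and the lipogenic gene Fasn differed by 0.60. Srebf1, the lipogenic transcription factor gene, differed by -0.59. In both lists limma called 0 genes, and the part of these differences in those of the PPARA targets was not tested.

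The tissue label was borne out by hepatocyte markers, of which 8 of 8 with a probe set of 1 symbol were above the filter. Their summed level on the log2 scale lay between 15.57 and 16.07 in knockout livers, against 15.78 and 15.97 in wild-type livers, with knockout livers 1 and 2 lowest. Angptl4 and Pdk4 are also made in fat and muscle. The adipocyte hormone gene Adipoq was near the lower end of the scale in all 6 livers, at 1.90, 1.91 and 1.91 in knockout livers, against 2.08, 1.98 and 1.80 in wild-type livers, and 1 of 7 muscle markers was above the filter. Of the adipocyte markers, 2 of 6 were above it, with a summed level of 8.98 to 9.82 in knockout livers, against 8.87 to 9.28 in wild-type livers, nearly all of it from Fabp4. Kupffer cell and macrophage markers, 11 of 11 above the filter, summed to 13.43 to 13.55 in knockout livers, against 13.34 to 13.50 in wild-type livers. Of these, 2 (C1qa and Cd68) were higher and 0 lower at an unadjusted p under 0.05. Differences of the 11 ran from -0.63 to 1.05, with 9 above 0 and 2 below it.

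Among the other cell type markers, 1 erythroid gene was higher and 1 cholangiocyte and 1 stellate cell gene were lower at an unadjusted p under 0.05, and limma called none of them, nor C1qa or Cd68. Slc4a1, the anion exchanger of red cells, was at 5.95, 7.01 and 6.42 in knockout livers, against 5.36, 4.39 and 5.69 in wild-type livers. Sox9, a transcription factor gene of bile duct cells, differed by -0.91 (SE 0.31) and the collagen gene Col1a2 by -0.60 (SE 0.21), and none of these 3 genes had overlapping groups. Another bright probe set of Col1a2 differed by -0.041. Differences above 0 were found for 2 of 3 erythroid and platelet, 1 of 3 cholangiocyte and 3 of 9 stellate and fibroblast markers tested. A probe set shared by the alpha globin genes Hba-a1 and Hba-a2, left out of the fit, was at 9.24, 8.71 and 9.02 in knockout livers, against 7.07, 6.41 and 9.11 in wild-type livers. It was low in wild-type livers 1 and 2 and near the knockout level in wild-type liver 3, where Cyp4a14 also had its highest wild-type value. Its difference of 1.46 was the largest among the shared globin probe sets. Others of the alpha globin genes differed by 1.19 and 0.78, and that of the beta globin genes by 0.39. The red cell gene Alas2 differed by -0.14, and a probe set of Hba-a1 alone, below the filter, by -0.25. The part of these markers in the values of the PPARA targets was not tested.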

How the data were processed

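RNA of 3 SIRT7 knockout and 3 wild-type mouse liver samples was measured on 1-colour Affymetrix arrays, and samples were grouped by title and Sirt7 allele. The authors deposited 1 log2 value per probe set and array, and per the submitters' processing notes the tools were R 2.11.1 and GCRMA 2.20.0. No source states the settings, and the log2 scale was read from the range of 0.841 to 13.969. GCRMA pulls unexpressed transcripts toward the lower end, where differences are not proportional to RNA amounts. There are no detection calls, and the precision is limited by the number of arrays.

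Gene names came from GEO's platform annotation, where of 22626 probe sets 20380 had 1 symbol, 691 several and 1555 none. Of those with 1, 20351 had a gene ID in RefSeq's table, and 0 symbols needed updating. Each of 12393 genes was represented by its brightest probe set, and genes with a mean under 4 were left out, which left 8343. Limma 3.58.1 in R 4.3.3 (lmFit, eBayes, 2-sided) compared the groups over all of them, without further normalization or a replicate block, with Benjamini-Hochberg adjustment and a threshold of 0.05. Errors of differences are moderated standard errors. The script was tested on simulated data. Array medians lay between 5.69 and 5.77, and 0 pairs of arrays were identical. Sequences are RefSeq's of GRCm38.p6. Values in every liver are given for Ppara and, in each class, for the 4 genes with the smallest p and the 2 brightest; Acadm was added after its values were seen. Outside the set, up to 3 genes of a list with the smallest p were named, with Acaa1a and Fgf21 always, and some genes are not reported here. Adipoq, C1qa, Cd68, Slc4a1, Sox9, Col1a2, Fabp4, Acot3, Alas2 and the globin probe sets were named after their values were seen. The members and lists were chosen with earlier results of these data known. Alternatives were no filter, a filter at 6, quantile normalization, the mean of a gene's probe sets, array weights, a replicate block, an ordinary test and leaving out each liver.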

Additional observations from a re-analysis of the deposited data

How the results depend on the processing

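The count of called genes stayed at 0 under every alternative except array weights, where limma called 2 genes (1 higher, Vnn1, and 1 lower, Cpt2) and 1748 of 8343 genes in all. That fit gave knockout liver 2 a weight of 6.12 and the other arrays 0.31 to 2.54, so its knockout mean is mostly that liver. The 5 genes at an unadjusted p under 0.05, all higher, became 12 with array weights (5 of them lower), against 39.2% of all genes. They became 3 with the mean of probe sets (6.25% of all genes), 2 with the replicate block (4.72%) and 1 with the ordinary test (4.85%). Without 1 liver they were 0 to 6 (0 to 6 higher, 0 to 1 lower, that one being Cpt2). The share of all genes was then 3.01% (without wild-type liver 2) to 16.6% (without knockout liver 3). Same-numbered livers did not pair: their deviations from the group means correlated at -0.089, -0.091 and -0.19. Between knockout and wild-type livers of different numbers the correlations ran from -0.25 to 0.31. Without 1 liver the median difference was -0.039 to 0.12 over the set, -0.22 to 0.062 for mitochondrial, -0.013 to 0.24 for peroxisomal, 0.061 to 0.35 for ketogenic and 0.22 to 0.60 for other target genes, so only the last 2 kept their sign. Signs turned with quantile normalization for Slc25a20 (0.034) and Decr2 (-0.0089), with the mean of probe sets for Slc25a20 (0.16), Hadh (0.034), Acaa2 (0.10) and Acat1 (-0.13) and with array weights for Acads (-0.010), Ehhadh (-0.020), Pdk4 (-0.28) and Aldh3a2 (-0.021). Leaving out 1 liver turned the sign of Ehhadh (-0.11 to 0.21), Decr2 (-0.34 to 0.34), Pdk4 (-0.16 to 0.16), Cpt1a (-0.054 to 0.34), Slc25a20 (-0.11 to 0.12), Acadvl (-0.34 to 0.00067), Etfb (-0.35 to 0.17), Etfdh (-0.22 to 0.17), Aldh3a2 (-0.11 to 0.14), Acads (-0.072 to 0.54), Hadha (-0.039 to 0.46), Eci2 (-0.0017 to 0.43), Slc27a2 (-0.29 to 0.015) and Decr1 (-0.40 to 0.062), giving the ranges shown. The cause was not tested.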

Other observations

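Vnn1 and Angptl4 had wider wild-type than knockout groups, with SDs of 0.22 in knockout and 1.24 in wild type for Vnn1 and 0.099 in knockout and 0.92 in wild type for Angptl4. Over the set, the SD was larger in wild type for 20 of 35 genes (57.1%, against 40.4% of all genes). Acot3, a peroxisomal thioesterase gene and neighbour of Acot1 below the filter, was at 4.96, 4.67 and 3.96 in knockout livers, against 2.71, 2.97 and 3.88 in wild-type livers, a difference of 1.34 (SE 0.36) without the filter (limma adjusted p = 0.701).

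Cpt1a gave 9.80, 10.77 and 10.89 in knockout livers on the dimmest of its bright probe sets, against 10.35, 10.34 and 10.65 in wild-type livers, where knockout liver 1 was the lowest of the 6. On the probe set used it gave 10.81, 11.24 and 10.46 in knockout livers, against 10.98, 10.65 and 10.43 in wild-type livers, with knockout liver 3 near the bottom. Hsd17b4 was likewise lowest of its group in knockout liver 3 on the probe set used and highest there on its other one (10.99, 11.14 and 11.89 in knockout livers, against 10.87, 11.43 and 11.26 in wild-type livers). These contrasts between probe sets of a gene are given as values.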
